A study of Felis catus with 15 samples.

Results

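Cholesterol synthesis and its transcriptional control were followed at the RNA level in the corpus epididymis of the domestic cat (Felis catus), fresh and after explant culture. The gene set holds the enzymes that turn acetyl-CoA into cholesterol, with the SREBP transcription factors, their sterol-sensing partners and a sterol carrier. Members were taken from a list of 26 gene symbols of the pathway, and 24 of them were found among the 38995 genes of the count table. The other 2, IDI1 and EBP, are not analysed here. All 24 members had enough reads to be tested.

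Cholesterol is built from acetyl-CoA by way of mevalonate and the isoprenoids, then squalene, then lanosterol, whose methyl groups and double bonds are removed or moved in the last steps. When the membrane of the endoplasmic reticulum is poor in sterol, SCAP escorts the SREBP precursors to the Golgi, where proteases release the active factors, and these switch on most genes of the pathway. When sterol is plentiful, the INSIG proteins hold SCAP back and the genes are turned down. In the epididymis, the duct in which sperm mature, sperm lose and exchange membrane sterol as they pass from caput to cauda.

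The study had 15 RNA-seq libraries in 3 groups of 5. Corpus explants cultured with extracellular vesicles from the caput, the upstream region of the duct, are called vesicle-treated explants. Corpus explants cultured without vesicles are called cultured explants, and uncultured corpus is called fresh tissue. The stated aim was to learn what caput vesicles do to gene expression in corpus explants, and fresh tissue served as control. The labels give no genotype, breed, age, vesicle dose or culture medium, carry a short code with D3 for both cultures and D0 for fresh tissue without explaining it, and do not say whether replicates came from separate animals. The p-values therefore measure the spread between these samples, which may be technical. Explants hold all cell types of the tissue piece, and in such bulk samples fewer cells of a type and less RNA per cell cannot be told apart.

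Total counts were 17308832 to 27420218 per library. The 10 principal cell markers, which mark the main epithelial cell of the duct, were detected in every group and summed to 2210 to 3461 CPM in vesicle-treated explants, 1049 to 3277 CPM in cultured explants and 28739 to 34289 CPM in fresh tissue. The 5 basal cell markers found (of 6) summed to 1559 to 4967 CPM in vesicle-treated explants, 1865 to 5255 CPM in cultured explants and 355 to 665 CPM in fresh tissue. The 6 markers of dividing cells summed to 257 to 346 CPM in vesicle-treated explants, 204 to 353 CPM in cultured explants and 28.9 to 48.1 CPM in fresh tissue, and the 5 clear cell markers to 39.0 to 80.5 CPM in vesicle-treated explants, 30.7 to 92.8 CPM in cultured explants and 228 to 438 CPM in fresh tissue. Fibroblast markers (6 of 6) summed to 676 to 6199 CPM in vesicle-treated explants, 914 to 8935 CPM in cultured explants and 455 to 1617 CPM in fresh tissue, and smooth muscle markers (6 of 6) to 602 to 3709 CPM in vesicle-treated explants, 1063 to 3673 CPM in cultured explants and 597 to 1583 CPM in fresh tissue. Endothelial markers (6 of 6) summed to 339 to 767 CPM in vesicle-treated explants, 403 to 598 CPM in cultured explants and 238 to 335 CPM in fresh tissue, and macrophage markers (6 of 6) to 17.1 to 65.8 CPM in vesicle-treated explants, 20.3 to 102 CPM in cultured explants and 27.0 to 51.5 CPM in fresh tissue. Lymphocyte markers (6 of 6) summed to 2.04 to 6.91 CPM in vesicle-treated explants, 1.85 to 6.68 CPM in cultured explants and 7.66 to 19.5 CPM in fresh tissue. The 5 sperm and late germ cell markers found (of 6) summed to 4.94 to 8.97 CPM in vesicle-treated explants, 4.61 to 10.4 CPM in cultured explants and 31.5 to 51.5 CPM in fresh tissue, with AKAP4 and CAPZA3 at 0 in cultured explants. Mitochondrial protein-coding genes held 6.40% to 7.26% of counts in vesicle-treated explants, 6.23% to 7.48% in 4 cultured explants and 8.69% to 11.4% in fresh tissue. Every member's difference from fresh tissue comes with these differences in marker levels and mitochondrial share, and their part in it was not tested.

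Library 3 of the cultured explants, called culture 3, stood apart from the other cultured explants. In it 31.2% of the tested genes were more than 2-fold from the median of the other 4, against 3.85% to 8.63% in the other cultured explants. Among the members, 10 were below all 4 of the others in culture 3, 9 were above them and 5 lay within their range. Its mitochondrial protein-coding genes held 0.179% of counts, far below the other cultured explants. Results that rest on it are given with and without it.

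Levels are CPM, read counts set to a common library total and corrected for library composition. They are not divided by transcript length, so they compare libraries for 1 gene and not genes with each other. Differences are log2 fold changes ± standard error (SE) from edgeR's quasi-likelihood test, with 5 libraries per group. A gene counts as called where its p, adjusted by Benjamini-Hochberg over 18038 genes, is under 0.05, and "rose" or "fell" is said only of called genes. In sentences that list 5 values for a group, replicates 1 to 5 follow each other.

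Single members moved in both directions in culture, at a share below or near that of all genes. Against fresh tissue, cultured explants had 4 members higher (ACAT2, LBR, SREBF2 and INSIG1), 5 lower (HMGCS1, FDFT1, NSDHL, SCAP and STARD4) and 15 not called. That is 37.5% of the members, where 54.3% of all tested genes were called, 28.7% higher and 25.6% lower. Without culture 3 the count was 15, or 62.5%, with 8 higher and 7 lower, against 60.3% of all genes, 31.3% higher and 29.0% lower. The members added were SQLE, CYP51A1, MSMO1 and HSD17B7, higher, and PMVK and SREBF1, lower. Vesicle-treated explants against the same fresh libraries had 12 members called, or 50%, with 7 higher and 5 lower. The background there was 52.9%, with 27.4% higher and 25.5% lower, and without culture 3 in the shared fit 15 members were called against 63.4%. With the replicate number as a block, which pairs vesicle-treated and fresh libraries, 13 members were called against 57.0%. The median log2 fold change of the members was 0.23 in vesicle-treated and 0.059 in cultured explants, against 0.014 and 0.035 for all tested genes. Without culture 3 the members' median in cultured explants was 0.16, against 0.016 for all tested genes.

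**Figure D1:**
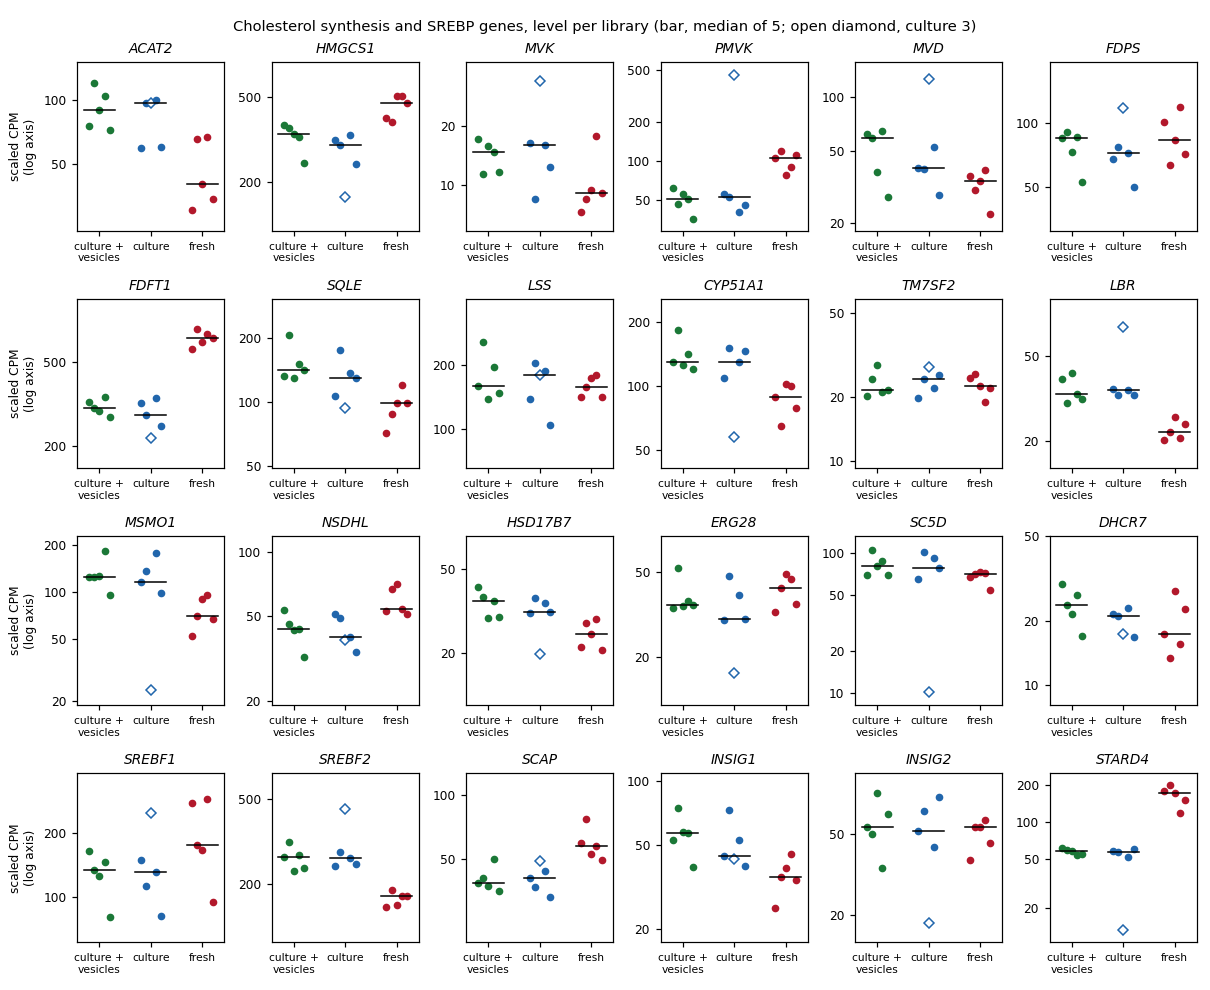
Scaled CPM (log axis) of each of the 24 members in the 5 vesicle-treated, 5 cultured and 5 fresh libraries; each point is a library, the bar is the median and the open diamond is culture 3. HMGCS1, FDFT1 and STARD4 lie lower in every cultured and vesicle-treated library than in any fresh one, LBR and SREBF2 lie higher, and culture 3 sits far from its group for PMVK (462.5 CPM) and STARD4 (13.2 CPM).

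The early mevalonate steps, from acetyl-CoA to farnesyl diphosphate, were represented by 6 members. ACAT2 (gene 101093863), the thiolase that joins acetyl-CoA units in the cytosol, had 75.6, 119.7, 89.2, 104 and 72.1 CPM in vesicle-treated explants, 59.4, 96.0, 97.0, 100.2 and 59.9 CPM in cultured explants and 30.3, 65.3, 40.2, 67.1 and 34.2 CPM in fresh tissue. Every vesicle-treated library lay above every fresh one, while cultured libraries 1 and 5 lay inside the fresh range. ACAT2 rose in both, by 0.96 ± 0.25 in vesicle-treated explants (edgeR adjusted p = 0.00437) and 0.80 ± 0.25 in cultured explants (adjusted p = 0.0129). HMGCS1 (gene 101091999), which makes HMG-CoA, had 371, 359.8, 334, 326 and 246 CPM in vesicle-treated explants, 316, 299, 170.3, 333 and 242 CPM in cultured explants and 400.0, 383, 506, 506 and 471 CPM in fresh tissue. No cultured or vesicle-treated library reached the lowest fresh one. HMGCS1 fell, with log2 fold changes of -0.47 ± 0.18 in vesicle-treated explants (edgeR adjusted p = 0.0358) and -0.74 ± 0.18 in cultured explants (adjusted p = 0.00254). Its call in vesicle-treated explants was lost on leaving out vesicle-treated library 4 or 5, or fresh library 3, 4 or 5, with adjusted p of 0.0603 to 0.0789, and with no filter on low counts (0.0782). ACAT2 and HMGCS1 catalyse consecutive reactions and went in opposite directions.

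PMVK (gene 101096787), phosphomevalonate kinase, had 61.5, 47.0, 55.7, 50.6 and 36.1 CPM in vesicle-treated explants, 55.5, 52.7, 462, 40.4 and 46.1 CPM in cultured explants and 106, 119.8, 77.9, 90.0 and 112 CPM in fresh tissue. Culture 3 was above every other library of the study, and the other 4 cultured libraries and all 5 vesicle-treated ones were below every fresh one. With culture 3 in the fit its log2 fold changes were -1.01 ± 0.57 in vesicle-treated explants (edgeR adjusted p = 0.151) and 0.38 ± 0.57 in cultured explants (adjusted p = 0.597), with no call. Without culture 3 they were -1.01 ± 0.15 (edgeR adjusted p = 5.50e-05) and -1.06 ± 0.16 (adjusted p = 8.04e-05), so 1 library set both the direction and the call in cultured explants.

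MVD (gene 101091985), the decarboxylase that yields isopentenyl diphosphate, had 62.6, 59.4, 38.4, 64.9 and 28.0 CPM in vesicle-treated explants, 40.7, 39.9, 126, 52.9 and 28.6 CPM in cultured explants and 36.4, 30.4, 34.1, 39.5 and 22.5 CPM in fresh tissue. Both explant groups overlapped fresh tissue, and culture 3 was the highest library. It was not called in either comparison, at 0.64 ± 0.35 in vesicle-treated explants (edgeR adjusted p = 0.139) and 0.82 ± 0.35 in cultured explants (adjusted p = 0.0589). Without culture 3 it was called higher in vesicle-treated explants (0.64 ± 0.24, edgeR adjusted p = 0.0293). The value in cultured explants then dropped to 0.32 ± 0.25 (adjusted p = 0.288). MVK (gene 101085666), mevalonate kinase, spanned 11.4 to 17.0 CPM in vesicle-treated explants, 8.50 to 33.6 CPM in cultured explants and 7.29 to 17.8 CPM in fresh tissue. Its log2 fold changes were 0.44 ± 0.32 in vesicle-treated and 0.73 ± 0.32 in cultured explants. FDPS (gene 101086533), farnesyl diphosphate synthase, spanned 52.8 to 91.3 CPM in vesicle-treated explants, 50.4 to 119 CPM in cultured explants and 63.6 to 120.1 CPM in fresh tissue, with log2 fold changes of -0.18 ± 0.23 in vesicle-treated and -0.19 ± 0.23 in cultured explants. Neither was called by edgeR in any comparison, with or without culture 3, and their groups overlapped. The result for MVK in cultured explants depended on single libraries. Without culture 3 its log2 fold change there was 0.35 ± 0.26 (edgeR adjusted p = 0.261). MVK was called higher there in 2 of 15 edgeR fits that left out 1 library (lowest adjusted p = 0.0148). In addition, limma-voom called MVK higher in both vesicle-treated and cultured explants (adjusted p = 0.0175 and 0.0336).

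From squalene onward 12 members were measured, and the first committed step was lower in every explant library than in fresh tissue. FDFT1 (gene 101084620), squalene synthase, which directs farnesyl diphosphate into sterols, had 324, 302, 292, 339.5 and 274 CPM in vesicle-treated explants, 318, 282, 218, 336 and 249.8 CPM in cultured explants and 570.4, 711, 619.8, 674 and 644 CPM in fresh tissue. The highest explant value was far below the lowest fresh one. FDFT1 fell, with log2 fold changes of -1.07 ± 0.13 in vesicle-treated explants (edgeR adjusted p = 7.14e-06) and -1.20 ± 0.13 in cultured explants (adjusted p = 2.50e-06). SQLE (gene 101086537), squalene epoxidase, the next enzyme, had 132, 206, 129, 150.2 and 141 CPM in vesicle-treated explants, 106, 176, 92.9, 136 and 128 CPM in cultured explants and 71.5, 87.1, 98.7, 119.9 and 98.7 CPM in fresh tissue. All vesicle-treated libraries were above all fresh ones, and cultured libraries 1 and 3 fell within the fresh range. SQLE rose in vesicle-treated explants and was not called in cultured ones, with log2 fold changes of 0.67 ± 0.19 in vesicle-treated explants (edgeR adjusted p = 0.00713) and 0.42 ± 0.19 in cultured explants (adjusted p = 0.0677). Without culture 3 it was also called higher in cultured explants (0.52 ± 0.18, adjusted p = 0.0211). The same held with the replicate number as a block (0.40 ± 0.15, edgeR adjusted p = 0.0393). LSS (gene 101080651), which closes the ring to form lanosterol, spanned 138 to 257 CPM in vesicle-treated explants, 104 to 205 CPM in cultured explants and 142 to 180.2 CPM in fresh tissue, with overlapping groups and no call (0.18 ± 0.20 in vesicle-treated and 0.036 ± 0.20 in cultured explants).

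The demethylation of lanosterol is shared by several enzymes. CYP51A1 (gene 101083499), lanosterol demethylase, had 129.6, 182, 125, 140.5 and 119.8 CPM in vesicle-treated explants, 108, 151, 57.4, 129 and 145 CPM in cultured explants and 88.7, 64.4, 102, 99.7 and 78.3 CPM in fresh tissue. Every vesicle-treated library was above every fresh one, as were 4 cultured libraries, while culture 3 was below all fresh ones. CYP51A1 rose in vesicle-treated explants, with log2 fold changes of 0.69 ± 0.22 in vesicle-treated explants (edgeR adjusted p = 0.0171) and 0.45 ± 0.22 in cultured explants (adjusted p = 0.102). Its call there was lost without vesicle-treated library 2 (adjusted p = 0.0533), and without culture 3 it was called higher in cultured explants too (0.62 ± 0.16, adjusted p = 0.00344).

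MSMO1 (gene 101096978), methylsterol monooxygenase, had 124, 125, 126, 183 and 95.6 CPM in vesicle-treated explants, 116, 137, 23.4, 178 and 98.0 CPM in cultured explants and 52.4, 70.1, 90.0, 95.6 and 66.8 CPM in fresh tissue. Culture 3 held the lowest value of the study, and the other 4 cultured libraries were all above the fresh ones. It was not called, at 0.80 ± 0.36 in vesicle-treated explants (edgeR adjusted p = 0.0761) and 0.56 ± 0.36 in cultured explants (adjusted p = 0.205). Without culture 3 it was called higher in both, at 0.80 ± 0.20 (adjusted p = 0.00364) and 0.82 ± 0.22 (adjusted p = 0.00462).

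NSDHL (gene 101096551), the dehydrogenase that acts after MSMO1, had 53.4, 45.8, 42.9, 43.6 and 32.0 CPM in vesicle-treated explants, 51.2, 48.9, 38.7, 40.0 and 33.7 CPM in cultured explants and 52.8, 67.1, 70.7, 54.1 and 51.3 CPM in fresh tissue. The cultured libraries were all below the fresh ones by a narrow margin, and vesicle-treated library 1 lay inside the fresh range. NSDHL fell, with log2 fold changes of -0.44 ± 0.16 in vesicle-treated explants (edgeR adjusted p = 0.0274) and -0.48 ± 0.16 in cultured explants (adjusted p = 0.0183). Both calls were lost without fresh library 3 (adjusted p = 0.0765 in vesicle-treated and 0.0538 in cultured explants), and the first also without fresh library 2 or vesicle-treated library 5 and with no filter (0.0571 to 0.0665). HSD17B7 (gene 101083482), the ketoreductase of the same complex, had 41.0, 36.8, 29.4, 35.1 and 29.7 CPM in vesicle-treated explants, 30.8, 36.3, 19.8, 34.4 and 31.1 CPM in cultured explants and 21.5, 27.7, 24.6, 29.0 and 20.7 CPM in fresh tissue. The vesicle-treated libraries lay just above the fresh ones, and culture 3 lay below them all. HSD17B7 rose in vesicle-treated explants, with log2 fold changes of 0.48 ± 0.17 in vesicle-treated explants (edgeR adjusted p = 0.0254) and 0.30 ± 0.17 in cultured explants (adjusted p = 0.138). That call was lost on leaving out vesicle-treated library 1 or 2 or fresh library 1 or 5, and with upper-quartile scaling, with adjusted p of 0.0577 to 0.0779. Without culture 3 HSD17B7 was called higher in cultured explants (0.42 ± 0.13, adjusted p = 0.0105). ERG28 (gene 101098236), named for a yeast protein that holds the demethylation enzymes together, spanned 34.0 to 52.1 CPM in vesicle-treated explants, 16.7 to 48.1 CPM in cultured explants and 32.4 to 48.9 CPM in fresh tissue and was not called (-0.088 ± 0.23 in vesicle-treated and -0.33 ± 0.23 in cultured explants).

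Other members act on the double bonds of the sterol. LBR (gene 101085014), a sterol reductase that also anchors lamins and chromatin at the inner nuclear membrane, had 38.9, 30.2, 41.4, 33.0 and 31.3 CPM in vesicle-treated explants, 35.1, 32.9, 68.1, 34.5 and 32.7 CPM in cultured explants and 20.1, 21.8, 25.8, 20.5 and 23.8 CPM in fresh tissue. All 10 explant libraries exceeded all fresh ones, with culture 3 the highest. LBR rose, with log2 fold changes of 0.64 ± 0.20 in vesicle-treated explants (edgeR adjusted p = 0.0125) and 0.86 ± 0.20 in cultured explants (adjusted p = 0.00177), and without culture 3 the value in cultured explants was 0.59 ± 0.11 (adjusted p = 0.000350). TM7SF2 (gene 101083545), a second reductase for the same reaction, spanned 20.3 to 28.4 CPM in vesicle-treated explants, 19.8 to 27.9 CPM in cultured explants and 18.9 to 25.7 CPM in fresh tissue. Its groups overlapped and its log2 fold changes were 0.028 ± 0.14 in vesicle-treated explants (edgeR adjusted p = 0.882) and 0.070 ± 0.14 in cultured explants (adjusted p = 0.692). So of the paired reductases, LBR was called and TM7SF2 was not; the difference between the genes was not tested. SC5D (gene 101099997), lathosterol oxidase, had 69.5, 105, 80.9, 87.6 and 69.4 CPM in vesicle-treated explants, 65.7, 102, 10.3, 92.8 and 77.5 CPM in cultured explants and 67.9, 70.4, 73.3, 71.5 and 54.2 CPM in fresh tissue, with culture 3 far below all others. DHCR7 (gene 101089143), which makes cholesterol by reducing a dehydrocholesterol, spanned 17.0 to 30.0 CPM in vesicle-treated explants, 16.7 to 23.1 CPM in cultured explants and 13.4 to 27.6 CPM in fresh tissue. Neither SC5D nor DHCR7 was called in any comparison, with or without culture 3. The log2 fold changes of SC5D were 0.29 ± 0.38 in vesicle-treated and 0.048 ± 0.38 in cultured explants, and those of DHCR7 0.30 ± 0.20 in vesicle-treated and 0.045 ± 0.20 in cultured explants. Without culture 3 those of SC5D were 0.29 ± 0.14 in vesicle-treated explants (edgeR adjusted p = 0.0882) and 0.33 ± 0.15 in cultured explants (adjusted p = 0.0752).

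Among the regulators, the transcript of the SREBP factor tied to cholesterol synthesis rose while that of its escort fell. SREBF2 (gene 101082503), which encodes SREBP2, the main activator of cholesterol genes, had 269, 317, 229.7, 275 and 237 CPM in vesicle-treated explants, 243, 283, 452, 264 and 247 CPM in cultured explants and 156, 188, 160.1, 175 and 175 CPM in fresh tissue. No explant library came down to the fresh range. SREBF2 rose, with log2 fold changes of 0.63 ± 0.16 in vesicle-treated explants (edgeR adjusted p = 0.00450) and 0.80 ± 0.17 in cultured explants (adjusted p = 0.000801), and 0.60 ± 0.099 in cultured explants without culture 3 (adjusted p = 0.000139). SCAP (gene 101097462), the escort of SREBPs and their sterol sensor, had 38.6, 40.5, 37.2, 49.9 and 35.1 CPM in vesicle-treated explants, 40.7, 36.8, 48.8, 44.0 and 33.1 CPM in cultured explants and 59.5, 77.3, 52.4, 57.2 and 49.4 CPM in fresh tissue. Cultured libraries stayed just under the fresh ones, and vesicle-treated library 4 lay inside the fresh range. SCAP fell, with log2 fold changes of -0.56 ± 0.15 in vesicle-treated explants (edgeR adjusted p = 0.00537) and -0.54 ± 0.15 in cultured explants (adjusted p = 0.00619).

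SREBF1 (gene 101087535), which encodes SREBP1, the factor of fatty acid genes and, in its longer form, of cholesterol genes, had 165, 134, 127, 146 and 81.1 CPM in vesicle-treated explants, 150.4, 113, 251, 131 and 82.0 CPM in cultured explants and 279, 177, 167, 291 and 95.5 CPM in fresh tissue. Fresh tissue itself was widely spread and overlapped both explant groups. SREBF1 was not called, at -0.63 ± 0.32 in vesicle-treated explants (edgeR adjusted p = 0.109) and -0.47 ± 0.32 in cultured explants (adjusted p = 0.220). It was called lower in cultured explants without culture 3 (-0.76 ± 0.30, adjusted p = 0.0400), and in vesicle-treated explants with the replicate number as a block, which pairs those libraries (-0.58 ± 0.22, adjusted p = 0.0377).

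INSIG1 (gene 101087651), which retains SCAP and is itself a target of SREBP, had 52.6, 74.8, 57.6, 56.7 and 39.5 CPM in vesicle-treated explants, 44.0, 72.8, 42.8, 52.4 and 39.9 CPM in cultured explants and 25.2, 35.3, 39.0, 45.4 and 34.0 CPM in fresh tissue. The highest values were in explants, and the lowest of both explant groups fell within the fresh range. INSIG1 rose, with log2 fold changes of 0.65 ± 0.20 in vesicle-treated explants (edgeR adjusted p = 0.0133) and 0.49 ± 0.20 in cultured explants (adjusted p = 0.0497). The call in cultured explants stood at the threshold: it was lost in 9 of 15 fits that left out 1 library (adjusted p up to 0.159) and with DESeq2 (0.0574), other scalings and other filters. INSIG2 (gene 101083870), its relative, spanned 34.0 to 79.3 CPM in vesicle-treated explants, 18.4 to 75.3 CPM in cultured explants and 37.4 to 58.6 CPM in fresh tissue, with overlapping groups and no call (0.16 ± 0.30 in vesicle-treated and 0.024 ± 0.30 in cultured explants). STARD4 (gene 101086371), which carries sterol between membranes and is known as an SREBP2 target, had 61.2, 59.5, 57.8, 53.4 and 54.4 CPM in vesicle-treated explants, 58.1, 56.5, 13.2, 51.6 and 60.2 CPM in cultured explants and 178, 198, 172, 119 and 151 CPM in fresh tissue. Every explant library was below every fresh one, and culture 3 was the lowest. STARD4 fell most of all members, with log2 fold changes of -1.51 ± 0.29 in vesicle-treated explants (edgeR adjusted p = 0.000463) and -1.77 ± 0.29 in cultured explants (adjusted p = 0.000126), and -1.53 ± 0.12 in cultured explants without culture 3 (adjusted p = 2.36e-07).

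Counts by step stand beside 27.4% of all tested genes higher and 25.5% lower in vesicle-treated explants, and 28.7% and 25.6% in cultured ones. Without culture 3 the shares were 32.5% and 30.9% in vesicle-treated explants, and 31.3% and 29.0% in cultured ones. No step was tested against these shares. By step, the early mevalonate members had 1 rise and 1 fall of 6 in both explant groups (2 and 2 in vesicle-treated and 1 and 2 in cultured explants without culture 3). The squalene and sterol members had 4 rises and 2 falls of 12 in vesicle-treated explants, and 1 and 2 in cultured ones. Without culture 3 these counts were 5 and 2 in both, so the smaller number of rises in cultured explants rested on that library. The regulators and carrier had 2 rises and 2 falls of 6 in both (2 and 3 in cultured explants without culture 3). The fresh libraries are shared by these comparisons, so the likeness of their counts is not independent. Within groups, the members' coefficients of variation had a median of 18.6% in vesicle-treated explants, 30.7% in cultured explants (18.0% without culture 3) and 17.6% in fresh tissue. The steadiest were STARD4 at 5.78% in vesicle-treated explants, TM7SF2 at 13.1% in cultured explants and SREBF2 at 7.58% in fresh tissue. The most variable were MVD at 32.5%, PMVK at 141% and SREBF1 at 40.8% in the same groups. Both extremes in cultured explants rested on culture 3: without it LBR was the steadiest at 3.54% and LSS the most variable at 29.2%.

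The effect of the vesicles was read from same-numbered pairs of vesicle-treated and cultured explants. No member was called, and neither was any of the 18038 genes (0.0%), while 268 genes (1.49%) had an unadjusted p under 0.05. DESeq2 called 0 genes as well (327 at an unadjusted p under 0.05), and limma-voom with quality weights called 1, which was no member. The unadjusted limma-voom p was under 0.05 for 2415 genes (13.39%) and for 6 of the 24 members, so the methods differed before adjustment. None of the 24 members had an unadjusted p under 0.05 in the edgeR test. Their log2 differences went from -0.54 (PMVK) to 0.47 (SC5D), with a median SE of 0.17, and 16 of 24 were above 0, as were 9331 of the 18038 tested genes. Those extremes came from pair 3, which holds culture 3: its differences went from -3.05 to 2.98 and exceeded 1 on the log2 scale for 9 members, against 0 members in the other 4 pairs.

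SQLE had the smallest p of the members, with same-numbered log2 differences of 0.32, 0.23, 0.47, 0.15 and 0.13 in pairs 1 to 5. All 5 were above 0, and the test gave 0.26 ± 0.11 (edgeR adjusted p = 0.953, unadjusted p = 0.0595). FDFT1, at 0.029, 0.10, 0.42, 0.013 and 0.13, and DHCR7, at 0.48, 0.17, 0.31, 0.19 and 0.022, were the other members above 0 in all 5 pairs. Their fitted differences were 0.13 ± 0.12 and 0.23 ± 0.13, with adjusted p of 0.953 for both. HMGCS1 was 0.23, 0.27, 0.97, -0.033 and 0.024 and SREBF2 0.14, 0.16, -0.98, 0.059 and -0.062, with signs that differed between pairs. The number of members above 0 was 23, 19, 14, 17 and 9 of 24 in pairs 1 to 5. These counts have no share of all tested genes in each pair beside them. They therefore cannot tell a lean of the pathway from a shift of the whole library.

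Without pair 3 the members' range narrowed to -0.24 (INSIG2) to 0.37 (MVD), with a median SE of 0.074. Of the 24 members 18 were above 0, as were 8901 of the 18038 tested genes. Again no member and no gene was called (0.0%), with 853 genes (4.73%) at an unadjusted p under 0.05. The members were not tested as a set against these shares. Below that level before adjustment were 6 of the 24 members. MVD was at 0.37 ± 0.11, LSS at 0.27 ± 0.083 and ACAT2 at 0.24 ± 0.073. FDPS was at 0.22 ± 0.069, SQLE at 0.20 ± 0.065 and INSIG2 at -0.24 ± 0.091. Their edgeR adjusted p was 0.957, so none held after correction.

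**Figure D2:**
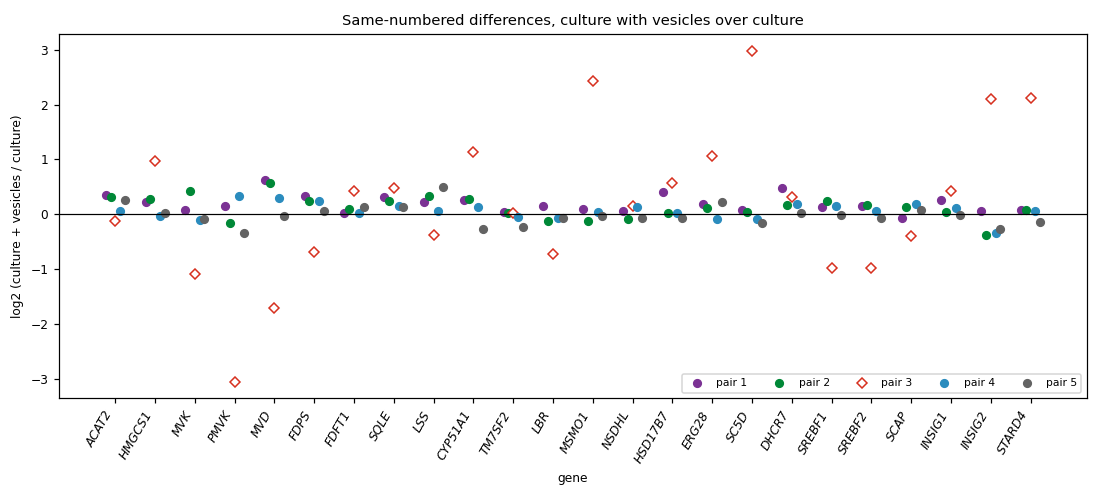
Same-numbered differences, log2 of vesicle-treated over cultured explants, for each of the 24 members, with 1 marker per pair. Pair 3 ranges from -3.05 to 2.98, and the other 4 pairs lie within 1 log2 unit of 0.

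Beyond the members, genes of the same pathway and its neighbours were read from lists of 55 genes, all of them found and tested. The counts of each list stand beside 27.4% of all tested genes higher and 25.5% lower in vesicle-treated explants, and 28.7% and 25.6% in cultured ones, with medians of 0.014 and 0.035. Of 14 other synthesis and SREBP processing genes, 3 rose and 4 fell in vesicle-treated explants (median log2 fold change -0.13), and 3 and 3 in cultured ones (median -0.13; 3 and 5 without culture 3). MBTPS2 spanned 29.4 to 32.0 CPM in vesicle-treated explants, 16.0 to 35.0 CPM in cultured explants and 13.2 to 19.6 CPM in fresh tissue. Every vesicle-treated library lay above every fresh one, and in cultured explants only culture 3 lay inside the fresh range. TMEM97 had 32.0, 42.5, 36.5, 31.4 and 38.3 CPM in vesicle-treated explants, 35.5, 50.1, 19.7, 29.7 and 34.4 CPM in cultured explants and 90.4, 106, 89.5, 83.2 and 87.5 CPM in fresh tissue. All explant libraries were below all fresh ones. MBTPS2, the second protease that frees SREBP, rose, with log2 fold changes of 0.94 ± 0.18 in vesicle-treated explants (edgeR adjusted p = 0.000428) and 0.82 ± 0.18 in cultured explants (adjusted p = 0.00131). TMEM97, a sterol-responsive membrane protein, fell, with log2 fold changes of -1.34 ± 0.19 in vesicle-treated explants (edgeR adjusted p = 3.14e-05) and -1.43 ± 0.19 in cultured explants (adjusted p = 1.69e-05).

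Of 14 genes of cholesterol uptake, efflux and esterification, 8 rose and 2 fell in vesicle-treated explants, and 8 and 2 in cultured ones, with medians of 0.62 and 0.62. SCARB1, the high-density lipoprotein receptor, spanned 97.0 to 139.5 CPM in vesicle-treated explants, 92.8 to 134 CPM in cultured explants and 11.5 to 18.3 CPM in fresh tissue and rose by 3.06 ± 0.16 in vesicle-treated explants (edgeR adjusted p = 4.71e-09) and 3.01 ± 0.16 in cultured explants (adjusted p = 4.63e-09). CH25H, which makes an oxysterol that blocks SREBP processing, spanned 2.25 to 4.09 CPM in vesicle-treated explants, 2.08 to 4.21 CPM in cultured explants and 32.2 to 74.7 CPM in fresh tissue and fell, with log2 fold changes of -4.04 ± 0.27 in vesicle-treated explants (edgeR adjusted p = 2.58e-08) and -4.13 ± 0.28 in cultured explants (adjusted p = 2.37e-08). All explant libraries lay above all fresh ones for SCARB1 and below them for CH25H.

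**Figure D3:**
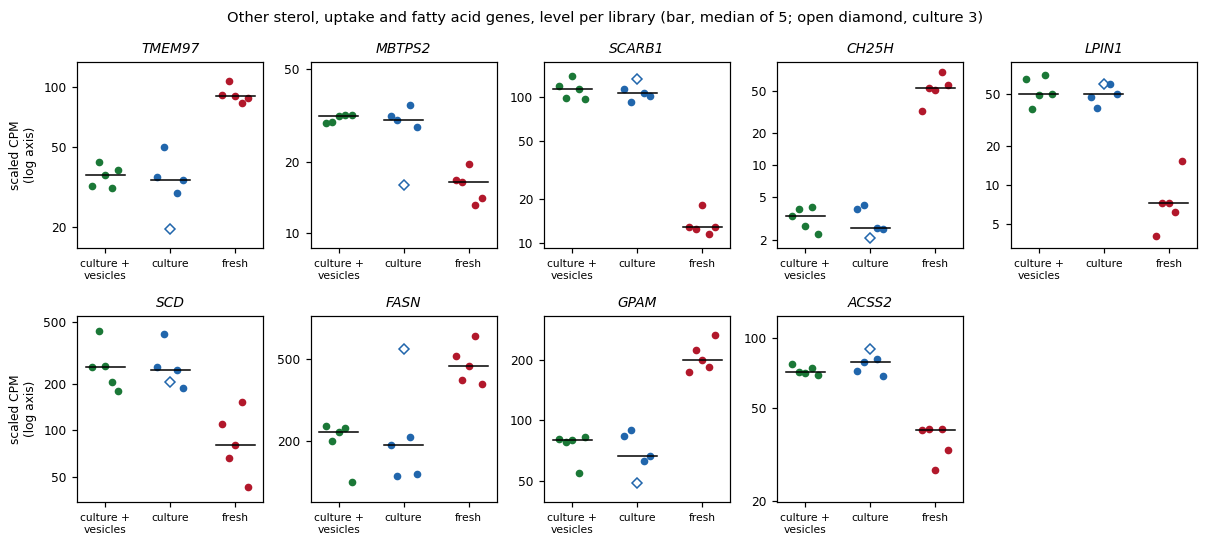
Scaled CPM (log axis) of 9 named genes outside the member list in the vesicle-treated, cultured and fresh libraries; each point is a library, the bar is the median and the open diamond is culture 3. SCARB1 lies at 97.0 to 139.5 CPM in vesicle-treated explants, 92.8 to 134 CPM in cultured explants and 11.5 to 18.3 CPM in fresh tissue, and CH25H is lower in every explant library than in any fresh one.

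Of 16 SREBP1 fatty acid targets, 7 rose and 5 fell in vesicle-treated explants (median 0.35), and 5 and 6 in cultured ones (median 0.12). FASN, fatty acid synthase, had 236, 201, 221, 231 and 127 CPM in vesicle-treated explants, 191, 136, 555, 210.3 and 138 CPM in cultured explants and 518, 394, 459.8, 644 and 379 CPM in fresh tissue. Culture 3 was inside the fresh range and all other explant libraries were below it. FASN fell, with log2 fold changes of -1.24 ± 0.34 in vesicle-treated explants (edgeR adjusted p = 0.00664) and -0.96 ± 0.34 in cultured explants (adjusted p = 0.0260), and -1.50 ± 0.21 in cultured explants without culture 3 (adjusted p = 3.97e-05). The call in cultured explants was lost on leaving out culture 1, 2, 4 or 5 or fresh library 4, with adjusted p up to 0.0694. SCD, stearoyl-CoA desaturase, spanned 179 to 436 CPM in vesicle-treated explants, 188 to 418 CPM in cultured explants and 43.0 to 152 CPM in fresh tissue and rose, with log2 fold changes of 1.57 ± 0.33 in vesicle-treated explants (edgeR adjusted p = 0.000961) and 1.54 ± 0.33 in cultured explants (adjusted p = 0.00108). LPIN1, a phosphatidate phosphatase, rose, with log2 fold changes of 2.79 ± 0.30 in vesicle-treated explants (edgeR adjusted p = 1.77e-06) and 2.69 ± 0.30 in cultured explants (adjusted p = 2.53e-06). ACSS2, which makes acetyl-CoA from acetate, rose as well, with 1.00 ± 0.12 in vesicle-treated explants (edgeR adjusted p = 9.16e-06) and 1.10 ± 0.12 in cultured explants (adjusted p = 3.48e-06). GPAM, which starts glycerolipid synthesis, fell, with log2 fold changes of -1.49 ± 0.18 in vesicle-treated explants (edgeR adjusted p = 6.41e-06) and -1.59 ± 0.18 in cultured explants (adjusted p = 3.54e-06).

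Of 11 genes of the non-sterol branch, which uses the isoprenoids for ubiquinone, dolichol and prenylation, 2 rose and 3 fell in vesicle-treated explants (median -0.072), and 1 and 4 in cultured ones (median -0.10; 3 and 4 without culture 3). PDSS1 and PDSS2, the subunits of the enzyme that makes the ubiquinone tail, went opposite ways. PDSS1 rose, with log2 fold changes of 1.32 ± 0.23 in vesicle-treated explants (edgeR adjusted p = 0.000170) and 1.07 ± 0.23 in cultured explants (adjusted p = 0.000894). PDSS2 fell, with log2 fold changes of -0.81 ± 0.20 in vesicle-treated explants (edgeR adjusted p = 0.00338) and -0.94 ± 0.20 in cultured explants (adjusted p = 0.00119). NUS1, a subunit of the dolichol-making prenyltransferase, fell, with log2 fold changes of -0.99 ± 0.23 in vesicle-treated explants (edgeR adjusted p = 0.00217) and -1.14 ± 0.23 in cultured explants (adjusted p = 0.000730). In the paired comparison of vesicle-treated with cultured explants, none of the 55 genes was called.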

How the data were processed

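RNA extracted with a Qiagen kit was made into TruSeq Stranded mRNA libraries, per the labels' protocols. The deposited values are the authors' raw counts for 38995 genes in 15 libraries. Tools named in the submitters' processing notes, without role or order, are StringTie 2.1.3b, Bowtie2 2.3.4.1, HISAT2 2.1.0 and Trimmomatic 0.38. The sources used here do not give the genome build, annotation, counter or strand setting, so reads of overlapping or near-identical genes may not have been told apart. Symbols came from RefSeq's gene list for F.catus_Fca126_mat1.0, used only for names, in which all 38995 identifiers were found.

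The filterByExpr function of edgeR 4.0.16 (R 4.3.3; minimum count 10, minimum total 15) kept 18038 genes and dropped 20957. After TMM scaling (trimmed mean of M values), glmQLFit and glmQLFTest gave 2-sided tests. Comparisons with fresh tissue used all 15 libraries with the group as the only term (12 residual degrees of freedom). Vesicle-treated and cultured explants were compared over the 10 explant libraries with the replicate number as a block (4 residual degrees of freedom). p-values were Benjamini-Hochberg adjusted over the tested genes, and SE is the absolute log2 fold change over the square root of F. The method was tested on simulated data. No libraries held identical counts.

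Same-numbered vesicle-treated and cultured libraries deviated together from their group means (r = 0.508, 0.588, 0.181, 0.602 and 0.418), as did vesicle-treated and fresh ones (0.242 to 0.362), and those numbers were taken as pairs, from the data. The main test of vesicle-treated explants against fresh tissue did not use this pairing, and the fit with the block is given as an alternative. A distance of 2-fold between a library and the median of the other 4 used a pseudocount of 0.5 CPM.

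The members and lists were chosen with earlier results of these data known. All members, the preset genes FASN and SCD and up to 3 genes with the smallest adjusted p in culture against fresh of each of 4 pathway lists are named. Some genes that this rule or the lists include are not reported here, and no other gene took their place. The markers KRT14 and PRM1 are not analysed here. Alternatives were DESeq2 1.42.0, limma-voom (limma 3.58.1) with quality weights, 2 other scalings, 2 other filters, other blocks, the 10 libraries of a comparison alone and each library or pair left out. A fit of vesicle-treated against cultured explants with no block and without culture 3 was added after seeing the data.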

Additional observations from a re-analysis of the deposited data

Results flagged for a closer look

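In 14 of 108 groups of 5 values tested over the named genes, the highest or lowest library was separated from the rest by more than Dixon's 95% critical value for 5 samples. Chance flags about 1 in 20 such groups. Of these, 7 were culture 3. In it PMVK was at 462.5 CPM against 40.4 to 55.5 in the other cultured explants, MVD at 126.1 against 28.6 to 52.9 and LBR at 68.11 against 32.7 to 35.1. SREBF2 was at 452 against 243 to 283 and FASN at 555 against 136 to 210.3. STARD4 was at 13.24 against 51.6 to 60.2, and NUS1 at 17.44 against 50.5 to 60.1. These directions were mixed, 5 high and 2 low, in the library whose mitochondrial share was 0.179%; the part of RNA quality or sample handling in them was not tested.

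Among vesicle-treated explants, SQLE (206.3 CPM against 129 to 150.2) and ERG28 (52.14 against 34.0 to 36.7) stood high in library 2, and GPAM stood low in library 4 (54.31 against 77.6 to 83.0). In fresh tissue, MVK was high in library 4 (17.78 CPM against 7.29 to 9.42), SCARB1 was high in library 3 (18.27 against 11.5 to 12.9), LPIN1 was high in library 5 (15.15 against 4.04 to 7.22) and SC5D was low in library 5 (54.17 against 67.9 to 73.3).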

How the results depend on the processing

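Depth and 5 libraries per group limit what can be called. Leaving out culture 3, or weighting libraries with limma-voom, moved the count of members called in culture against fresh by over 1.5 times. In culture against fresh, 9 members were called; the count was 15 without culture 3 and 15 with limma-voom, 8 with DESeq2 and 10 with the replicate block, and 7 to 15 over single libraries left out. In vesicle-treated against fresh it was 12, with 13 under the block and 10 to 15 over single libraries left out. Vesicle-treated against cultured explants gave 0 members under every alternative run. Same-numbered cultured and fresh libraries correlated at 0.198, 0.344, 0.0326, 0.265 and 0.290, so, with number 3 below 0.1, they were not taken as pairs, although vesicle-treated libraries were paired with both. In each pair of groups the same number correlated best, except culture 3 with fresh 3, at 0.0326 against 0.0417 for another number. Upper-quartile scaling moved the median of all genes by -0.105 in vesicle-treated against fresh, and by less than 0.1 in culture against fresh. The block added calls of SREBF1 in vesicle-treated against fresh and of SQLE in culture against fresh (edgeR adjusted p = 0.0393), and changed no other named gene's call.

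PMVK of culture against fresh, not called in the main fit, changed sign and was called lower with limma-voom and without culture 3 (-1.06 ± 0.16, edgeR adjusted p = 8.04e-05). No other named gene was called after a change of sign. The log2 fold changes that changed sign were all of genes not called in the main fit of that comparison. With limma-voom they were MVK (0.011), PMVK (0.046), MVD (0.39), SREBF1 (0.12), SREBF2 (0.071), SCAP (0.069), INSIG2 (-0.19), FASN (0.21), SCD (-0.089), GPAM (-0.077), NUS1 (-0.041), PDSS2 (-0.086), TMEM97 (-0.039) and MBTPS2 (-0.062) of vesicle-treated against untreated culture and PMVK (-0.99), LSS (-0.078) and TM7SF2 (-0.070) of culture against fresh. With the replicate block they were PMVK (-0.36), LSS (-0.00079), SC5D (-0.086) and INSIG2 (-0.021) of culture against fresh. With upper-quartile scaling they were TM7SF2 (-0.078) of vesicle-treated against fresh and LSS (-0.057), TM7SF2 (-0.028), SC5D (-0.048), DHCR7 (-0.052) and INSIG2 (-0.075) of culture against fresh, with relative log expression scaling TM7SF2 (-0.026) of vesicle-treated against fresh and INSIG2 (-0.021) of culture against fresh, with DESeq2 TM7SF2 (-0.027) of vesicle-treated against fresh and INSIG2 (-0.021) of culture against fresh and with a filter at 1 CPM TM7SF2 (-0.0053) of vesicle-treated against fresh and INSIG2 (-0.0093) of culture against fresh. With no block and without culture 3 they were MVK (0.090), PMVK (0.045), MVD (0.32), TM7SF2 (0.020), LBR (0.047), MSMO1 (-0.017), SC5D (-0.034), SREBF1 (0.13), SREBF2 (0.034), SCAP (0.059), INSIG2 (-0.073), FASN (0.27), SCD (-0.049), GPAM (-0.0085), CH25H (-0.020), NUS1 (-0.060), PDSS2 (-0.035), TMEM97 (-0.050) and MBTPS2 (-0.020) of vesicle-treated against untreated culture. The cause was not tested.

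Signs also changed on leaving out single libraries or pairs. For vesicle-treated against untreated culture the ranges were MVK -0.31 to 0.065, MVD -0.20 to 0.37, FDPS -0.031 to 0.22, TM7SF2 -0.064 to 0.0042, MSMO1 -0.012 to 0.58, NSDHL -0.00015 to 0.060, SC5D -0.033 to 0.66, SREBF1 -0.18 to 0.13, SREBF2 -0.21 to 0.073, SCAP -0.068 to 0.078, INSIG2 -0.24 to 0.34, FASN -0.25 to 0.22, SCD -0.070 to 0.079, LPIN1 -0.014 to 0.17, GPAM -0.041 to 0.19, CH25H -0.047 to 0.19, NUS1 -0.067 to 0.35, PDSS2 -0.064 to 0.27, TMEM97 -0.044 to 0.24 and MBTPS2 -0.030 to 0.24. For vesicle-treated against fresh they were LSS -0.0058 to 0.24, TM7SF2 -0.078 to 0.075 and INSIG2 -0.017 to 0.30, and for culture against fresh PMVK -1.06 to 0.62, LSS -0.060 to 0.15, SC5D -0.13 to 0.33, DHCR7 -0.062 to 0.21 and INSIG2 -0.18 to 0.24.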

Other observations

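Other lipid genes of the same lists, picked after their values were seen, also differed between explants and fresh tissue. SOAT2, which esterifies cholesterol and is best known from intestine and liver, had 10.6, 12.9, 9.31, 18.9 and 8.11 CPM in vesicle-treated explants, 11.8, 9.60, 9.76, 17.3 and 17.4 CPM in cultured explants and 3.20, 2.57, 2.51, 1.67 and 1.19 CPM in fresh tissue, with no overlap and log2 fold changes of 2.42 ± 0.31 in vesicle-treated explants (edgeR adjusted p = 1.27e-05) and 2.55 ± 0.31 in cultured explants (adjusted p = 7.83e-06). LRP1, a large lipoprotein receptor, spanned 144 to 345 CPM in vesicle-treated explants, 172 to 412 CPM in cultured explants and 52.9 to 97.2 CPM in fresh tissue, also without overlap, at 1.62 ± 0.29 in vesicle-treated explants (edgeR adjusted p = 0.000220) and 1.83 ± 0.29 in cultured explants (adjusted p = 7.52e-05). THRSP, a small protein linked to fatty acid synthesis, spanned 0 to 0.338 CPM in vesicle-treated explants, 0 to 0.394 CPM in cultured explants and 3.40 to 6.87 CPM in fresh tissue, at or near 0 in both explant groups. Its fitted log2 fold changes, which depend on the prior count, were -5.11 ± 0.93 in vesicle-treated explants (edgeR adjusted p = 0.000290) and -5.47 ± 0.96 in cultured explants (adjusted p = 0.000199).

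FADS1 and FADS2, desaturases of long-chain fatty acids, were above 0 in all 5 same-numbered pairs of vesicle-treated over cultured explants. FADS1 had 89.7, 67.5, 54.8, 131 and 67.2 CPM in vesicle-treated explants, 85.5, 46.7, 47.0, 105 and 42.4 CPM in cultured explants and 82.5, 50.6, 69.9, 137 and 78.1 CPM in fresh tissue, and its paired log2 difference was 0.35 ± 0.13 (edgeR adjusted p = 0.953, unadjusted p = 0.0305). FADS2 had 46.7, 78.2, 28.0, 20.7 and 39.4 CPM in vesicle-treated explants, 39.0, 62.2, 19.3, 19.8 and 24.8 CPM in cultured explants and 3.95, 1.69, 42.9, 1.96 and 1.60 CPM in fresh tissue, with a paired difference of 0.37 ± 0.14 (adjusted p = 0.953, unadjusted p = 0.0294). Fresh library 3 was far above the other fresh libraries for FADS2. Neither difference held after correction over all genes.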
